A study of Homo sapiens with 12 samples.

Results

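CIITA, the master switch of MHC class II transcription, was examined together with 9 genes of the class II pathway in MOLM13 and OCIAML5 cells, both human acute myeloid leukemia lines. These 10 genes were taken by their symbols from the 60648 genes listed in each of 2 tables of raw counts, and all 10 were found in both. They are CIITA, CD74, HLA-DRA, HLA-DRB1, HLA-DPA1, HLA-DPB1, HLA-DQA1, HLA-DQB1, HLA-DMA and HLA-DMB. Messenger RNA was sequenced in 12 libraries, which form 6 groups of 2. In a first experiment, cells with a lentiviral hairpin against PSPC1 (shPSPC1), an RNA-binding protein of nuclear paraspeckles, were set against cells with a control hairpin (shCTL), in MOLM13 and in OCIAML5. In a second, OCIAML5 cells with a hairpin against the myeloid transcription factor PU.1 (shPU.1, gene SPI1) were set against OCIAML5 controls of their own. All groups were infected with lentivirus and then selected with puromycin or sorted for GFP. MOLM13 grew in RPMI medium with 10% FBS, and OCIAML5 in α-MEM with 20% FBS and 10 ng/mL of human GM-CSF, so that line and culture medium cannot be told apart. Separate cultures or separate hairpins are not named in the labels for the libraries of a group. The p-values therefore reflect the spread among the sequenced libraries alone, which may be only technical.

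MHC class II molecules are pairs of an α and a β chain that show peptides to CD4+ T cells. The chains assemble in the endoplasmic reticulum with CD74, the invariant chain, and HLA-DM later exchanges a remnant of CD74 for a peptide. Transcription of these genes rests on CIITA, a coactivator that does not itself bind DNA and is recruited by RFX, CREB and NF-Y proteins on the X and Y boxes of the class II promoters. In myeloid cells CIITA itself is read from promoters on which PU.1 and interferon regulatory factors are known to act.

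Library totals were 15.4 to 22.8 M counted reads for PSPC1 and 26.3 to 39.7 M for PU.1. Levels are given in CPM, counts scaled to a common library size with 1 joint scaling over the 12 libraries. They are relative levels in bulk RNA, in which fewer cells that carry a transcript and less RNA per cell cannot be told apart. PSPC1 stood at 27.7 and 28.6 CPM in MOLM13 shPSPC1 libraries, against 133 and 137 CPM in their controls, and at 18.8 and 19.2 CPM in OCIAML5 shPSPC1 libraries, against 100.3 and 100.2 CPM in theirs. SPI1 stood at 46.4 and 45.2 CPM in shPU.1 libraries, against 220 and 198 CPM in their controls. PSPC1 was lower in the shPU.1 libraries too, at 58.4 and 56.9 CPM, against 102 and 109 CPM in their controls (log2 fold change -0.89). The libraries carried the pan-leukocyte gene PTPRC and the myeloid genes CD33, SPI1, LYZ and CEBPA of a leukemia identity list. Of the 13 genes of that list, 1 or 2 averaged below 1 CPM in each group, and 1 had 0 counts in OCIAML5 shPSPC1 libraries. Single markers of other cell types were present too: PAX5 of the B lymphocyte list averaged 23.4 CPM in OCIAML5 controls of the PSPC1 experiment, and IL3RA of the plasmacytoid dendritic cell list 56.9 CPM and TRAC of the T and NK lymphocyte list 45.8 CPM in MOLM13 controls. MS4A1, POU2AF1 and CLEC4C of these lists had 0 counts in all 12 libraries.

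Promoter windows of 300 bases, 250 before and 50 after the RefSeq start site on GRCh38.p14, were found for 8 of the 10 genes, in 9 windows, and CIITA and HLA-DRA had none. They are shown because the X and Y boxes are the sequences through which CIITA is recruited. The X box core was searched as the letters ACNGATG preceded by GNN and the longer Y box as GATTGG, on both strands, with letters taken from known class II promoters, so that a match in them is no discovery. Of 35116 promoter windows of all genes, 2.33% held the X box core, 15.1% the longer Y box and 0.319% both. Each stretch below is the reference sequence, not that of these cell lines, written 5′ to 3′ on the strand of its gene with the X box core and the Y box in capitals. In the 4 stretches that hold both, the X box comes first.
HLA-DRB1, chr6:32589870-32589946, minus strand: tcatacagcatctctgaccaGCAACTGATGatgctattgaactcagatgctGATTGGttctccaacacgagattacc
HLA-DQB1, chr6:32666721-32666797, minus strand: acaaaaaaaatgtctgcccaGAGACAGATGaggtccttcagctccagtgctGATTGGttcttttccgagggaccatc
HLA-DMA, chr6:32953152-32953229, minus strand: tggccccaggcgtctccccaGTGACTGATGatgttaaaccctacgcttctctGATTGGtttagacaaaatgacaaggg
HLA-DMB, chr6:32941025-32941135, minus strand: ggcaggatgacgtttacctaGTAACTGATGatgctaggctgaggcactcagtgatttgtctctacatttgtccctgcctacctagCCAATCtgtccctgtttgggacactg
The X box core began at -78 from the start site in HLA-DRB1, at -120 in HLA-DQB1, at -112 in HLA-DMA and at -87 in HLA-DMB. The gap to the longer Y box was 21 bases in HLA-DRB1, 21 in HLA-DQB1 and 22 in HLA-DMA. In HLA-DMB the match to the longer Y box lay 55 bases away and on the other strand, so that it is read there as CCAATC. A variant Y box nearer to the X box would be missed by these letters, so the spacing in HLA-DMB is uncertain.

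The windows of CD74, HLA-DPB1 and HLA-DQA1 held no match to the X box core. They held the shorter Y box core ATTGG, or CCAAT on the other strand, which 34.6% of all windows hold, and in HLA-DPB1 the core at -75 is part of a match to the longer Y box on the other strand. They are shown with the shorter core in capitals. A search for fixed letters can miss variants of the X box, so that no match does not show that a gene lacks one.
CD74, chr5:150412939-150412998, minus strand: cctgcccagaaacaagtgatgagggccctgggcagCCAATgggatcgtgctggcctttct
HLA-DPB1, chr6:33075856-33075939, plus strand: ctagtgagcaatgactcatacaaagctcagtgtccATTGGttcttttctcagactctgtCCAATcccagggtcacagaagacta
HLA-DQA1, chr6:32637303-32637362, plus strand: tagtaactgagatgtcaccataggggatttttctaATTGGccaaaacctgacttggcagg
Neither window of HLA-DPA1 held either core. The short form of the X box, ACNGATG alone, which is part of the longer one and which 7.65% of all windows hold, added a match in CD74 only. The PU.1 core GAGGAA, in 27.9% of all windows, matched in HLA-DRB1, HLA-DQA1, HLA-DQB1, HLA-DMA, HLA-DPA1 and HLA-DPB1. The X2 core TGACG, in 24.6%, matched in HLA-DQB1, HLA-DMB, HLA-DPA1 and HLA-DPB1. These are matches of letters in a fixed window and were not tested as binding sites.

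**Figure D1:**
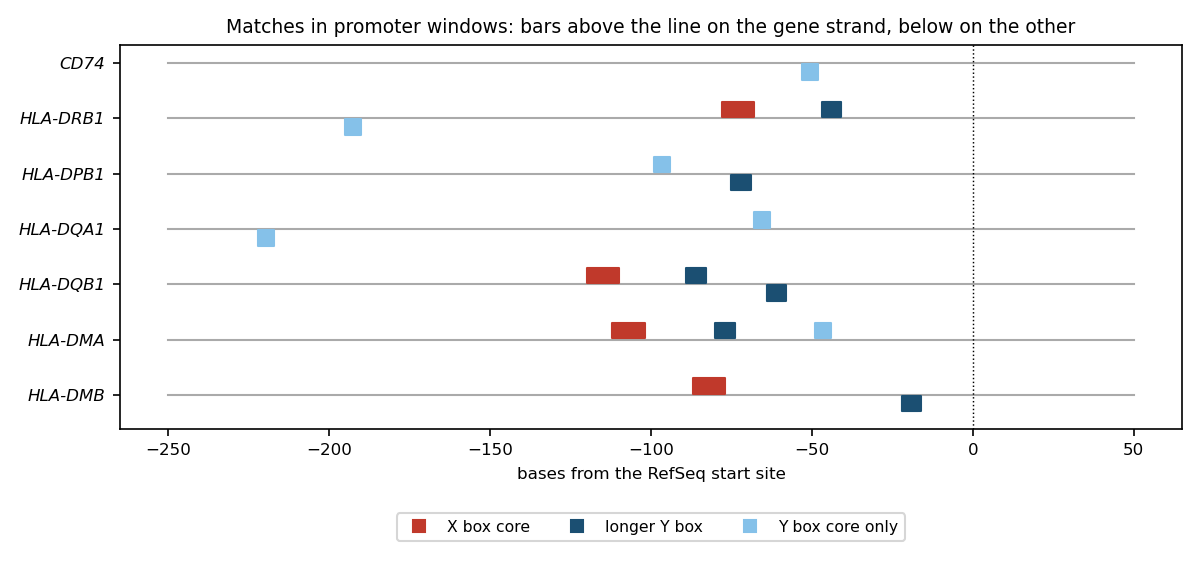
Matches to the X box core (red), the longer Y box (dark blue) and the Y box core alone (light blue) in the promoter windows of 7 of the genes, by distance in bases from the RefSeq start site; bars above a line lie on the strand of the gene, bars below on the other strand. HLA-DRB1, HLA-DQB1, HLA-DMA and HLA-DMB hold an X box core, with its first base at -78, -120, -112 and -87, and a longer Y box nearer the start site.

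MOLM13 held far less of the class II transcripts than OCIAML5. All 10 genes were lower in MOLM13 controls than in OCIAML5 controls of the same experiment (edgeR quasi-likelihood test with Benjamini-Hochberg adjustment over all 16457 genes tested, adjusted p under 0.05), where 60.6% of all genes tested were called, 30% higher and 30.7% lower. Genes with few MOLM13 counts, among them HLA-DPA1, HLA-DPB1, HLA-DQA1, HLA-DQB1 and HLA-DMB, passed the low-count filter only through OCIAML5 libraries, where they are high. That these were called lower in MOLM13 follows from how they entered the test, and their values are given as a description. CIITA (chr16:10866222-10943021) had 3.03 and 2.85 CPM in MOLM13 controls, against 172 and 167 CPM in OCIAML5 controls, or -5.85 as a log2 fold change (adjusted p = 2.6e-40). From 112 counts over the MOLM13 controls, it was 57.5-fold lower there (exact 95% interval 47.7 to 70.0, counting error only). CD74 (chr5:150401637-150412929) had 285 and 277 CPM in MOLM13 controls, against 2840 and 2888 CPM in OCIAML5 controls, or -3.36 ± 0.040 as a log2 fold change (SE; adjusted p = 1.9e-49). CD74 was thus the gene of the set that MOLM13 kept at a high level.

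The α and β chain genes were close to the detection limit in MOLM13. HLA-DRA (chr6:32439842-32445046), the α chain of HLA-DR, had 0.699 and 1.45 CPM in MOLM13 controls, against 568 and 623 CPM in OCIAML5 controls, and HLA-DRB1 (chr6:32578769-32589848), its β chain, had 0.186 and 0.364 CPM, against 91.7 and 107 CPM. The log2 fold change of MOLM13 over OCIAML5 was -9.17 for HLA-DRA and -8.52 for HLA-DRB1. These rest on 39 and 10 counts over the MOLM13 controls. HLA-DRA was 577-fold lower (exact 95% interval 422 to 812) and HLA-DRB1 374-fold lower (203 to 780). HLA-DPB1 (chr6:33075926-33087201) and HLA-DQA1 (chr6:32628179-32647062) had 0 counts in all 4 MOLM13 libraries. With a floor of 3 counts put in place of 0 over the MOLM13 controls, HLA-DPB1 was 1291-fold and HLA-DQA1 58.8-fold lower there. The exact 95% lower limits, from the counts themselves, were smaller, at 1049-fold and 47.3-fold. HLA-DPA1 (chr6:33064569-33080775) had 1 count over both MOLM13 controls, against 9712 counts in the OCIAML5 controls, a ratio of 10913-fold lower with an exact 95% interval of 1958 to 431097 that covers counting error only. HLA-DQB1 (chr6:32659467-32668383), low in both lines, had 6 counts over the MOLM13 controls, against 39 over the OCIAML5 controls, and was 7.30-fold lower (exact 95% interval 3.07 to 21.1).

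Of the HLA-DM genes, whose product loads peptide, HLA-DMA (chr6:32948613-32969094) had 0.606 and 0.303 CPM in MOLM13 controls, against 38.9 and 39.2 CPM in OCIAML5 controls, a log2 fold change of -6.35. From 18 counts over the MOLM13 controls, it was 82.4-fold lower there (exact 95% interval 51.9 to 139). HLA-DMB (chr6:32934629-32941070) had 3 counts over the MOLM13 controls, against 488 over the OCIAML5 controls, 183-fold lower with an exact 95% interval of 62.2 to 889. The order of SPI1 was the reverse: it was at 260 and 249 CPM in MOLM13 controls, against 204 and 182 CPM in OCIAML5 controls, or 0.39 ± 0.051 as a log2 fold change (SE; adjusted p = 3.4e-09). The groups did not overlap for any of the 10 genes or for SPI1, where 39.2% of all genes tested were below and 39.5% above without overlap. For genes that passed the filter only through OCIAML5 libraries, this too follows from how they entered the test.

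Per length of the exons, CD74 stood first in all 6 groups and the chain genes were uneven. In the OCIAML5 controls of the PSPC1 experiment the mean level per kilobase of exon was 1711 CPM for CD74, 465 for HLA-DRA, 169 for HLA-DPA1, 80.6 for HLA-DRB1, 65.6 for HLA-DPB1, 34.8 for HLA-DMA, 10.5 for CIITA, 10.4 for HLA-DMB, 2.62 for HLA-DQA1 and 0.663 for HLA-DQB1. CIITA and HLA-DMB, with 10.7 and 10.4 against 9.73 and 11.1 CPM per kilobase, were the neighbours in that order whose libraries overlapped. In those controls the HLA-DQ pair was the lowest, whereas in OCIAML5 shPSPC1 libraries CIITA, with 2.10 CPM per kilobase on average, stood below HLA-DQA1, with 3.26. The libraries were not typed here for their HLA alleles, and reads lost or shared because an allele differs from the reference cannot be told from a low level. The exon length of CIITA, 16108 bases over all its listed transcripts, is longer than a single transcript and lowers its value per kilobase. On the same strand, CIITA shares 2378 exon bases with AC133065.3, and HLA-DMB shares 438 and HLA-DMA 174 with AL645941.2. AC133065.3 and AL645941.2 had 0 counts over the 12 libraries. Whether reads in the shared bases were left out of the counts, which would lower these levels, was not tested.

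**Figure D2:**
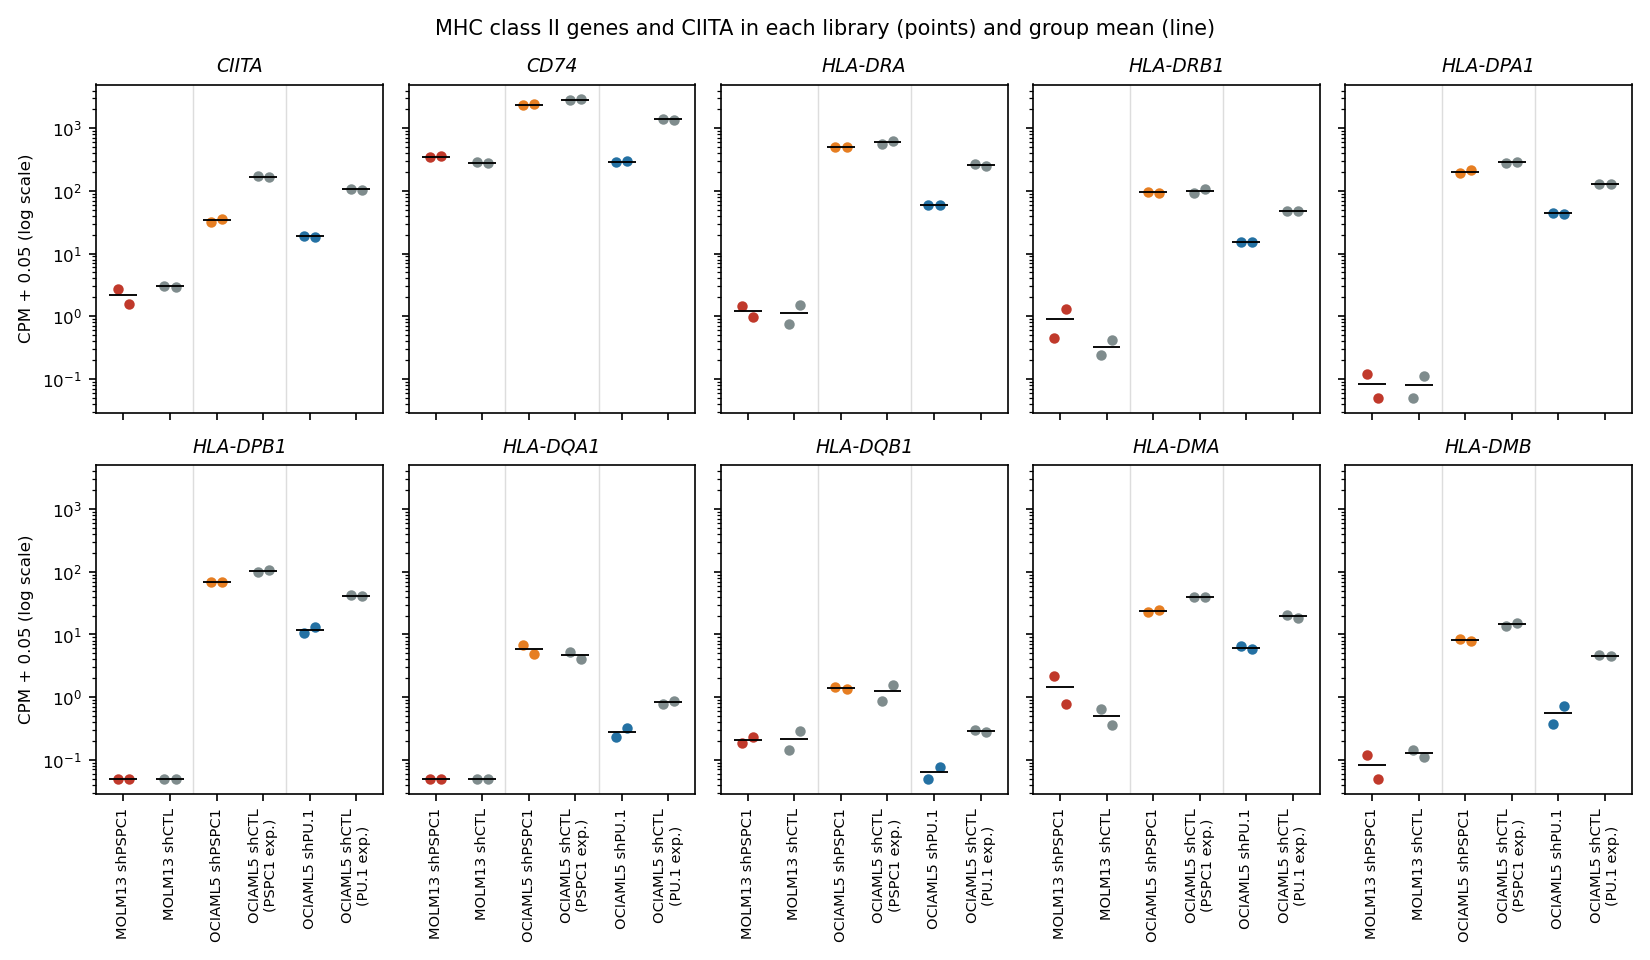
CPM of the 10 genes in each library, on a log axis after adding 0.05; points are libraries, lines the mean of the 2 libraries of a group, and each hairpin group stands left of its controls. MOLM13 libraries hold CD74 between 277 and 355 CPM while HLA-DPB1 and HLA-DQA1 are at 0, and after PU.1 knockdown CIITA, at 18.8 and 18.6 CPM, lies below its controls at 107 and 105 CPM.

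After PSPC1 knockdown in OCIAML5, CIITA had the largest fold change of the set. Of the 10 genes, 7 fell (adjusted p under 0.05), none rose and 3 were not called, where 56% of all genes tested were called, 27.5% higher and 28.4% lower. The median log2 fold change of the 10 was -0.36, beside 0.02 over all genes tested. CIITA had 32.3 and 35.4 CPM in shPSPC1 libraries, against 172 and 167 CPM in controls, or -2.31 ± 0.079 as a log2 fold change (SE; adjusted p = 1.1e-29). CIITA shares 830 exon bases with DEXI on the opposite strand, and over the 12 libraries DEXI held 2515 counts and CIITA 16142.

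CD74, the invariant chain, had 2360 and 2401 CPM in shPSPC1 libraries, against 2840 and 2888 CPM in controls, or -0.25 ± 0.036 as a log2 fold change (SE; adjusted p = 6.7e-08). HLA-DRA had 509.9 and 502 CPM in shPSPC1 libraries, against 568 and 623 CPM in controls (log2 fold change -0.21 ± 0.047, SE; adjusted p = 0.00012). HLA-DRB1, its partner, had 96.5 and 93.9 CPM in shPSPC1 libraries, against 91.7 and 107 CPM in controls, and its groups overlapped (log2 fold change -0.03 ± 0.079, SE; adjusted p = 0.74). So the α chain of HLA-DR was slightly below its controls and the β chain was within their spread, whereas CIITA was 4.95-fold lower.

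Both HLA-DP chains fell. HLA-DPA1 had 195 and 213 CPM in shPSPC1 libraries, against 284 and 292 CPM in controls (log2 fold change -0.48 ± 0.053, SE; adjusted p = 4.4e-11). HLA-DPB1 had 69.2 and 67.9 CPM in shPSPC1 libraries, against 99.1 and 105 CPM in controls (log2 fold change -0.56 ± 0.076, SE; adjusted p = 1.9e-08). For neither gene did the groups overlap, where 38% of all genes tested lay below and 37.7% above without overlap. HLA-DPA1 and HLA-DPB1 share 31 exon bases on opposite strands.

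The HLA-DQ chains, at a few CPM, were not called. HLA-DQA1 had 6.63 and 4.83 CPM in shPSPC1 libraries, against 5.23 and 3.98 CPM in controls (log2 fold change 0.34 ± 0.30, SE; adjusted p = 0.35), and HLA-DQB1 had 1.42 and 1.28 CPM, against 0.825 and 1.54 CPM (0.22 ± 0.57, SE; adjusted p = 0.77). Their groups overlapped. Both HLA-DM genes fell. HLA-DMA had 22.4 and 24.6 CPM in shPSPC1 libraries, against 38.9 and 39.2 CPM in controls (log2 fold change -0.72 ± 0.13, SE; adjusted p = 1e-05), and HLA-DMB had 8.50 and 7.72 CPM, against 13.6 and 15.5 CPM (-0.81 ± 0.20, SE; adjusted p = 0.00048). With DESeq2, HLA-DMA was not called (adjusted p = 0.18).

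Markers of other cell types moved with this result. The summed level of the 10 genes of a monocyte and macrophage list was 540 and 548 CPM in shPSPC1 libraries, against 1047 and 1032 CPM in controls, and 4 of its 5 tested genes fell. MPEG1 made up most of it, with 431 and 441 CPM, against 882 and 869 CPM, while FCGR3A was at 0 counts in both groups. A B lymphocyte list summed to 13.1 and 14.3 CPM, against 23.2 and 25.1 CPM, nearly all of it PAX5. The plasmacytoid dendritic cell list summed to 37.9 and 37.9 CPM, against 52.2 and 54.2 CPM, the conventional dendritic cell list to 18.3 and 16.2 CPM, against 26.1 and 24.9 CPM, and the T and NK lymphocyte list to 1.96 and 2.11 CPM, against 3.08 and 3.40 CPM. The part of these genes in the result was not tested.

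After PSPC1 knockdown in MOLM13, 3 of the 10 genes rose and none fell, where 57% of all genes tested were called, 27.6% higher and 29.5% lower. CD74 had 351 and 355 CPM in shPSPC1 libraries, against 285 and 277 CPM in controls, or 0.32 ± 0.039 as a log2 fold change (SE; adjusted p = 9.5e-10). CD74 rested on 4567 to 6111 counts per library and stayed called without any 1 library. HLA-DMA had 31 and 12 counts (2.09 and 0.725 CPM) in shPSPC1 libraries, against 13 and 5 counts (0.606 and 0.303 CPM) in controls, or 1.51 ± 0.44 as a log2 fold change (SE; adjusted p = 0.0028). Without shPSPC1 replicate 1 it was 0.58 (adjusted p = 0.42). HLA-DRB1 had 6 and 21 counts (0.404 and 1.27 CPM) in shPSPC1 libraries, against 4 and 6 counts (0.186 and 0.364 CPM) in controls, or 1.67 ± 0.55 as a log2 fold change (SE; adjusted p = 0.0071), which was 0.59 (adjusted p = 0.57) without shPSPC1 replicate 2 and 1.20 (adjusted p = 0.12) without control replicate 1. For these 3 genes the groups did not overlap, where 38.8% of all genes tested stood above without overlap.

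CIITA had 2.695 and 1.51 CPM in MOLM13 shPSPC1 libraries, from 40 and 25 counts, against 3.03 and 2.85 CPM in controls, from 65 and 47 counts. Both shPSPC1 libraries lay below both controls, as in 36.9% of all genes tested, and the log2 fold change of -0.52 ± 0.24 missed the threshold (SE; adjusted p = 0.056). Without shPSPC1 replicate 1 it was -0.99 (adjusted p = 0.0048), and without shPSPC1 replicate 2 it was -0.15 (adjusted p = 0.70). HLA-DRA had 1.42 and 0.907 CPM in shPSPC1 libraries, against 0.699 and 1.45 CPM in controls (log2 fold change 0.14 ± 0.34, SE; adjusted p = 0.75). The other 5 chain and HLA-DM genes held 0 to 4 counts in each MOLM13 library, so that a change in them was not detectable at this depth. Marker lists moved in MOLM13 as well. The T and NK lymphocyte list of 10 genes summed to 22.6 and 21.8 CPM in shPSPC1 libraries, against 71.7 and 69.3 CPM in controls, with 3 of 5 tested genes lower. The plasmacytoid dendritic cell list of 7 summed to 41.2 and 38.3 CPM, against 81.5 and 81.5 CPM, with 3 of 4 tested lower and CLEC4C at 0. The conventional dendritic cell list of 9 summed to 21.9 and 24.1 CPM, against 36.0 and 29.6 CPM, and the monocyte and macrophage list to 124 and 127 CPM, against 119 and 117 CPM, within which MPEG1 rose (log2 fold change 1.08). The part of these genes in the result was not tested.

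A test of the difference itself placed the PSPC1 effect in MOLM13 above that in OCIAML5 for 4 of the 10 genes and below it for none, where 30.5% of all genes tested differed with 12.5% higher and 18% lower in MOLM13. The difference, on the log2 scale, was 1.79 ± 0.27 for CIITA (SE; adjusted p = 4e-07) and 0.56 ± 0.053 for CD74 (SE; adjusted p = 2.7e-12). CD74 rose in MOLM13 and fell in OCIAML5, and so did HLA-DMA. For HLA-DMA the difference was 2.23 ± 0.46 (SE; adjusted p = 0.00011) and for HLA-DRB1 1.70 ± 0.55 (SE; adjusted p = 0.013), both resting on the low MOLM13 counts given above. Without MOLM13 shPSPC1 replicate 1 the difference for HLA-DMA was 1.30 (adjusted p = 0.0995). That for HLA-DRB1 was 0.63 (adjusted p = 0.64) without MOLM13 shPSPC1 replicate 2 and 1.24 (adjusted p = 0.16) without MOLM13 control replicate 1.

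After PU.1 knockdown in OCIAML5 the whole set fell together. All 9 of the 10 genes that could be tested fell, where 60.4% of all genes tested were called, 29.6% higher and 30.9% lower, and their median log2 fold change was -1.81, beside 0.02 over all genes. Scaling by library size alone moved the median of all genes by 0.15 and the split of called genes to 6583 higher and 3995 lower, against 4983 higher and 5206 lower, and the same 9 of 9 tested genes of the set fell. CIITA had 18.8 and 18.6 CPM in shPU.1 libraries, against 107 and 105 CPM in controls, or -2.52 ± 0.065 as a log2 fold change (SE; adjusted p = 2.1e-44). CD74 had 290 and 297 CPM in shPU.1 libraries, against 1421 and 1340 CPM in controls, or -2.25 ± 0.039 as a log2 fold change (SE; adjusted p = 1.9e-54). In shPU.1 libraries CD74 stood below the 351 and 355 CPM of MOLM13 shPSPC1 libraries and above the 285 and 277 CPM of MOLM13 controls.

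The HLA-DR chains followed, each with both shPU.1 libraries far below both controls, where 37.8% of all genes tested lay below and 41% above without overlap. HLA-DRA had 60.3 and 59.8 CPM in shPU.1 libraries, against 266 and 253 CPM in controls (log2 fold change -2.13 ± 0.049, SE; adjusted p = 1.7e-47). HLA-DRB1 had 15.4 and 15.5 CPM in shPU.1 libraries, against 47.9 and 47.5 CPM in controls (log2 fold change -1.64 ± 0.079, SE; adjusted p = 4.7e-29). Both HLA-DP chains fell as well. HLA-DPA1 had 44.8 and 42.3 CPM in shPU.1 libraries, against 129 and 127 CPM in controls (log2 fold change -1.57 ± 0.055, SE), and HLA-DPB1 had 10.6 and 13.1 CPM, against 42.3 and 40.6 CPM (-1.81 ± 0.088, SE).

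The HLA-DQ chains were low in these controls and lower after knockdown. HLA-DQA1 had 5 and 10 counts (0.177 and 0.273 CPM) in shPU.1 libraries, against 24 and 32 counts (0.734 and 0.820 CPM) in controls, or -1.76 ± 0.57 as a log2 fold change (SE; adjusted p = 0.0054). It was not called with DESeq2 (adjusted p = 0.056), nor without shPU.1 replicate 1 (-1.53, adjusted p = 0.067) or without control replicate 2 (-1.70, adjusted p = 0.0697). HLA-DQB1, too low to be tested, had 0 and 1 counts in shPU.1 libraries, against 8 and 9 counts in controls, 15.4-fold lower with an exact 95% interval of 2.41 to 643. HLA-DMB had the largest fold change of the tested genes, with 0.319 and 0.682 CPM in shPU.1 libraries, against 4.59 and 4.41 CPM in controls (-3.12 ± 0.30, SE; adjusted p = 1.2e-14), and HLA-DMA had 6.48 and 5.75 CPM, against 20.8 and 18.3 CPM (-1.70 ± 0.12, SE; adjusted p = 1e-20).

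The marker lists moved here too. The monocyte and macrophage list summed to 19.9 and 17.5 CPM in shPU.1 libraries, against 429 and 435 CPM in controls, and 4 of its 6 tested genes fell, with FCGR3A at 0 counts in both groups. CSF1R, the receptor of the monocyte growth factor M-CSF, had 2.83 and 3.46 CPM, against 165 and 159 CPM. The conventional dendritic cell list summed to 6.87 and 7.25 CPM, against 19.5 and 14.6 CPM, and the B lymphocyte list to 1.70 and 1.88 CPM, against 5.66 and 5.97 CPM. Other lists stood higher: the T and NK lymphocyte list summed to 13.7 and 11.9 CPM, against 2.91 and 2.33 CPM, with all 3 tested genes higher, among them TRAC (log2 fold change 3.78), and the plasmacytoid dendritic cell list to 69.2 and 69.7 CPM, against 58.4 and 58.7 CPM. The part of these genes in the result was not tested.

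**Figure D3:**
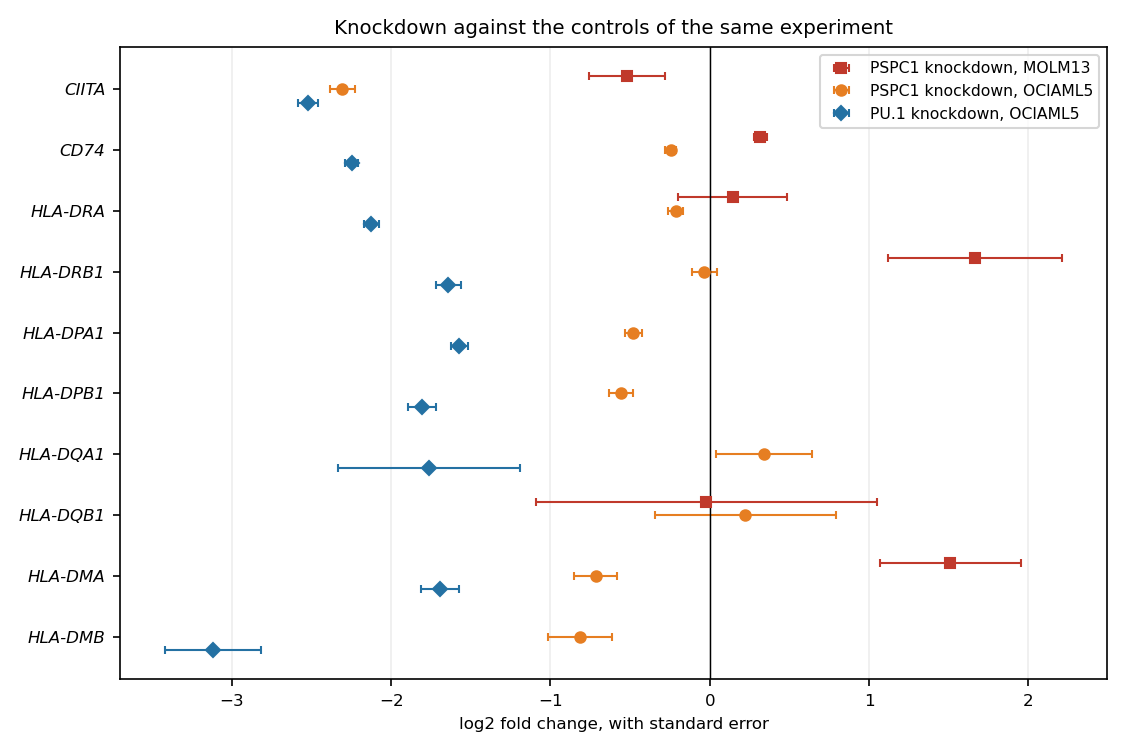
Log2 fold changes of hairpin over control for the 10 genes, with the standard error of the edgeR fit as bars; genes with 0 to 4 counts per library in MOLM13, other than HLA-DQB1, and HLA-DQB1 after PU.1 knockdown have no point. For CIITA the OCIAML5 knockdowns of PSPC1 and PU.1 lie close together, at -2.31 and -2.52, whereas CD74 lies at -0.25 and -2.25.

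The OCIAML5 knockdowns of PU.1 and PSPC1 differed in the class II genes but not detectably in CIITA. In the joined fit of the 8 OCIAML5 libraries, in which each knockdown was set against its own controls, the PU.1 effect lay below the PSPC1 effect for 9 of the 10 genes, where 45.6% of all genes tested differed, 22.8% higher and 22.9% lower. For CIITA the difference was -0.20 ± 0.092 on the log2 scale (SE; adjusted p = 0.078), a p that misses the threshold and does not show equal effects. The differences were -1.99 ± 0.056 for CD74 (adjusted p = 1e-30), -1.90 ± 0.067 for HLA-DRA, -1.59 ± 0.10 for HLA-DRB1, -1.08 ± 0.073 for HLA-DPA1 and -1.24 ± 0.11 for HLA-DPB1 (SE). They were -2.08 ± 0.54 for HLA-DQA1, -0.96 ± 0.15 for HLA-DMA and -2.28 ± 0.33 for HLA-DMB (SE). HLA-DQB1, at 0 and 1 counts in the shPU.1 libraries, had an adjusted p of 0.012, which was 0.082 without shPU.1 replicate 1. The experiment and the target of the hairpin cannot be told apart in these differences. PSPC1 was itself below its controls in the shPU.1 libraries, and the part of this in the result was not tested.

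The OCIAML5 controls of the experiments were themselves far apart, and this bears on every small change given above. All 10 genes were lower among controls of the PU.1 experiment than in those of the PSPC1 experiment with no overlap, where 32.1% of all genes tested were lower and 34.2% higher without overlap, and the comparison has no test because the experiment and its sequencing cannot be told apart. CD74 averaged 1380 ± 57.6 CPM among controls of the PU.1 experiment and 2864 ± 33.9 CPM in those of the PSPC1 experiment (SD, n = 2 each), 2.07-fold lower, HLA-DRA was 2.30-fold lower and CIITA 1.60-fold lower. HLA-DMB was 3.23-fold, HLA-DQB1 4.97-fold and HLA-DQA1 5.92-fold lower. These gaps exceed the PSPC1 effect in OCIAML5 for each of the 10 genes other than CIITA.

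In a comparison added after the data were seen, with the PU.1 experiment giving the controls, the same shPSPC1 libraries of OCIAML5 had 9 of the genes higher and CIITA alone lower, where 64.2% of all genes tested were called, 31.4% higher and 32.8% lower. CD74 was then at 0.79, HLA-DRA at 0.97, HLA-DPA1 at 0.68, HLA-DPB1 at 0.73, HLA-DMA at 0.27 and HLA-DMB at 0.86 on the log2 scale, each of which had fallen against its own controls, and HLA-DRB1 was at 1.00. The shPU.1 libraries set against the controls of the PSPC1 experiment had all 10 genes lower, where 56.2% of all genes tested were called, 26.9% higher and 29.2% lower. The fall of CIITA after PSPC1 knockdown, and that of the 9 tested genes after PU.1 knockdown, thus had the same direction against either set of controls, and the smaller falls of 6 class II genes after PSPC1 knockdown did not. These outcomes follow from the gaps between the controls given above. They are no separate test of either knockdown against its own controls.

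**Figure D4:**
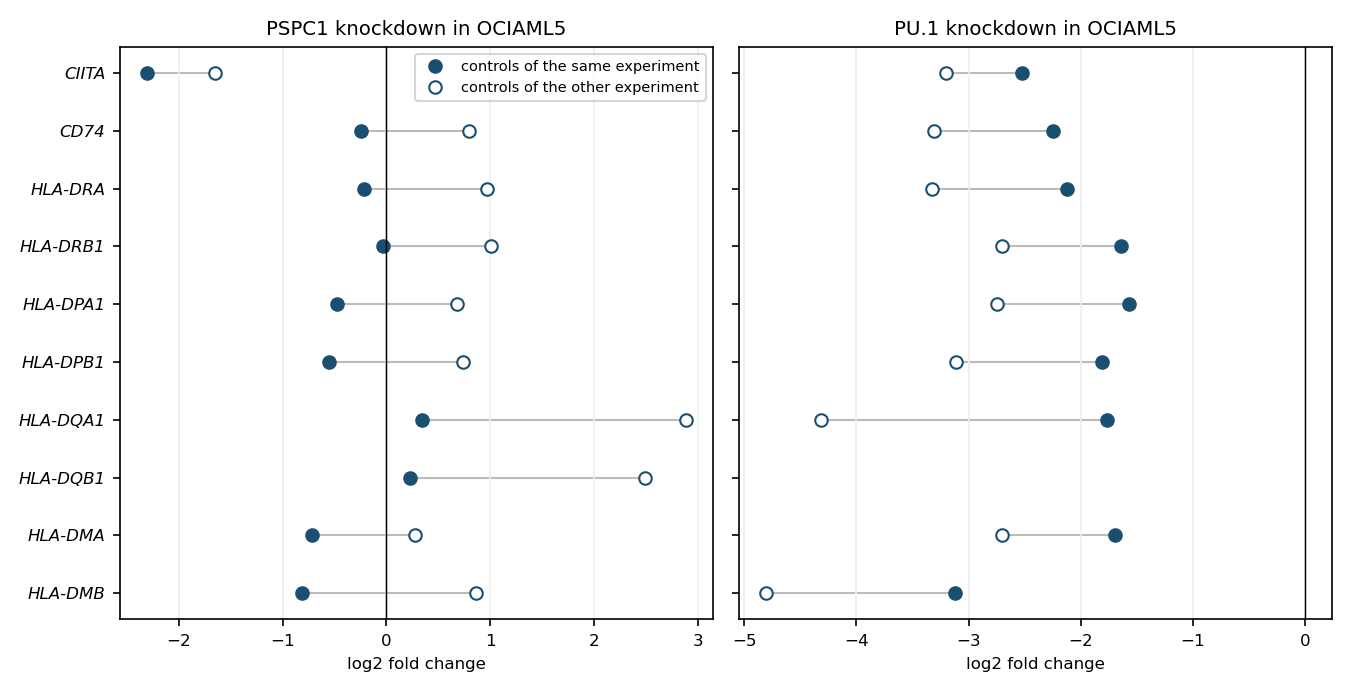
Log2 fold changes of the OCIAML5 knockdowns against the controls of the same experiment (filled) and against those of the other experiment (open, in the joined fit); HLA-DQB1 has no point for PU.1, since it was not tested against its own controls. CIITA is below 0 for both choices in both panels, and CD74 after PSPC1 knockdown moves between -0.25 and 0.79.

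The level of CIITA by group had a strict order with no overlap between neighbours: the OCIAML5 controls of the PSPC1 experiment (169 CPM on average), those of the PU.1 experiment (106), OCIAML5 shPSPC1 (33.8), OCIAML5 shPU.1 (18.7), MOLM13 controls (2.94) and MOLM13 shPSPC1 (2.10). HLA-DRA did not keep that order: OCIAML5 shPSPC1, with 506 CPM on average, stood above the PU.1 experiment's controls, with 259 CPM, although its CIITA level was lower. Summed over the 8 HLA genes, the level was 909 and 915 CPM in OCIAML5 shPSPC1 libraries, against 1101 and 1187 CPM in their controls. It was 138 and 137 CPM in shPU.1 libraries, against 512 and 491 CPM in theirs. In MOLM13 it was 4.18 and 3.08 CPM in shPSPC1 libraries, against 1.68 and 2.49 CPM.

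Of a list of 10 further class II genes and paralogs, 5 were tested after PSPC1 knockdown and none was called in either line by edgeR or DESeq2, with 0 of them at an unadjusted p under 0.05 by either tool. Of all genes tested, edgeR called 57% in MOLM13 and 56% in OCIAML5. HLA-DRB6, HLA-DQA2 and HLA-DOA had 0 counts in both MOLM13 groups, so that they could not have been called in that line. After PU.1 knockdown 4 were tested and all 4 fell, where 60.4% of all genes tested were called, 29.6% higher and 30.9% lower. HLA-DOA, a chain of HLA-DO, which restrains HLA-DM, had 0.142 and 0.0818 CPM in shPU.1 libraries, against 0.826 and 0.769 CPM in controls (log2 fold change -2.85 ± 0.66, SE; adjusted p = 0.00011). HLA-DRB5, a paralog of HLA-DRB1, had 2.27 and 1.61 CPM, against 5.48 and 5.07 CPM (-1.48 ± 0.22, SE), and the pseudogene HLA-DRB6 had 3.22 and 4.34 CPM, against 7.31 and 7.41 CPM (-0.96 ± 0.17, SE). Reads of HLA-DRB1, HLA-DRB5 and HLA-DRB6, and of HLA-DQA1 and HLA-DQA2, may be shared among these near copies, so their separate levels are uncertain. HLA-DOB was the exception between lines: it had 6.53 and 7.76 CPM in MOLM13 controls, against 1.27 and 1.35 CPM in OCIAML5 controls.

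The genes of the proteins that recruit CIITA were present in all groups. Of 13 genes of RFX, NF-Y, CREB and cofactors, a list that also holds HDAC2 and EZH2, 9 fell and 2 rose after PSPC1 knockdown in OCIAML5, 7 fell and 1 rose in MOLM13, and 6 fell and 3 rose after PU.1 knockdown. The list is not limited to activators, so its counts give no net direction for class II transcription. Of all genes tested, 56% were called in OCIAML5 and 57% in MOLM13 after PSPC1 knockdown and 60.4% after PU.1 knockdown, and this background holds for each list below. The medians of the 13 log2 fold changes were -0.28, -0.39 and -0.11, beside 0.02, 0.0060 and 0.02 over all genes tested. KAT2B, a histone acetyltransferase that works with CIITA, rose in all 3, and it had 32.0 and 33.1 CPM in OCIAML5 shPSPC1 libraries, against 11.5 and 11.3 CPM in controls. EZH2, the methyltransferase of the Polycomb complex, fell in all 3, with log2 fold changes of -1.52 in MOLM13 and -1.59 in OCIAML5 after PSPC1 knockdown and -0.71 after PU.1 knockdown. The subunits of RFX were singled out after their values were seen. RFX5 was at -0.15 (adjusted p = 0.018) after PSPC1 knockdown in OCIAML5 and at 0.14 (adjusted p = 0.0067) after PU.1 knockdown, RFXANK was at 0.40 (adjusted p = 0.00044) and 0.28 (adjusted p = 0.0017) in these knockdowns and at 0.18 (adjusted p = 0.079) in MOLM13, and RFXAP fell in all 3, by 0.73 in MOLM13, 0.59 in OCIAML5 and 0.51 after PU.1 knockdown.

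Of 12 genes listed as factors of the CIITA promoters, 8 fell and 4 rose after PSPC1 knockdown in OCIAML5, 5 fell and 3 rose in MOLM13, and 6 of 11 tested fell and 4 rose after PU.1 knockdown, with median log2 fold changes of -0.48, -0.09 and -0.72. This list mixes genes of different roles too, so its counts give no net direction for CIITA. IRF8, an interferon regulatory factor that pairs with PU.1 on DNA, had 97.4 and 96.6 CPM in OCIAML5 shPSPC1 libraries, against 346 and 359 CPM in controls (log2 fold change -1.84 ± 0.047, SE; adjusted p = 7e-35). It had 83.0 and 85.04 CPM in shPU.1 libraries, against 195 and 187 CPM (-1.20 ± 0.048, SE; adjusted p = 2.2e-33), and in MOLM13 it had 347 and 366 CPM in shPSPC1 libraries, against 331 and 330 CPM (0.10, adjusted p = 0.054). In MOLM13 both shPSPC1 libraries lay above both controls for IRF8, and below them for CIITA, with neither gene called. Of all genes tested there, 38.8% lay above and 36.9% below without overlap. IRF1, named after its values were seen, was at -0.49 (adjusted p = 0.00067) after PSPC1 knockdown in OCIAML5, at -0.72 (adjusted p = 1.1e-14) after PU.1 knockdown and at -0.18 (adjusted p = 0.30) in MOLM13. SPI1 itself was at 201 and 217 CPM in OCIAML5 shPSPC1 libraries, against 204 and 182 CPM in controls. It was called higher there although its groups overlapped (log2 fold change 0.13 ± 0.051, SE, adjusted p = 0.023). In MOLM13 SPI1 was at 333 and 363 CPM in shPSPC1 libraries, against 260 and 249 CPM in controls (0.44 ± 0.050, SE, adjusted p = 7.9e-11). MYBL2 fell in all 3, with log2 fold changes of -3.01 in MOLM13, -1.96 in OCIAML5 and -0.94 after PU.1 knockdown, and MYB had 125 and 122 CPM in OCIAML5 shPSPC1 libraries, against 399 and 393 CPM in controls.

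**Figure D5:**
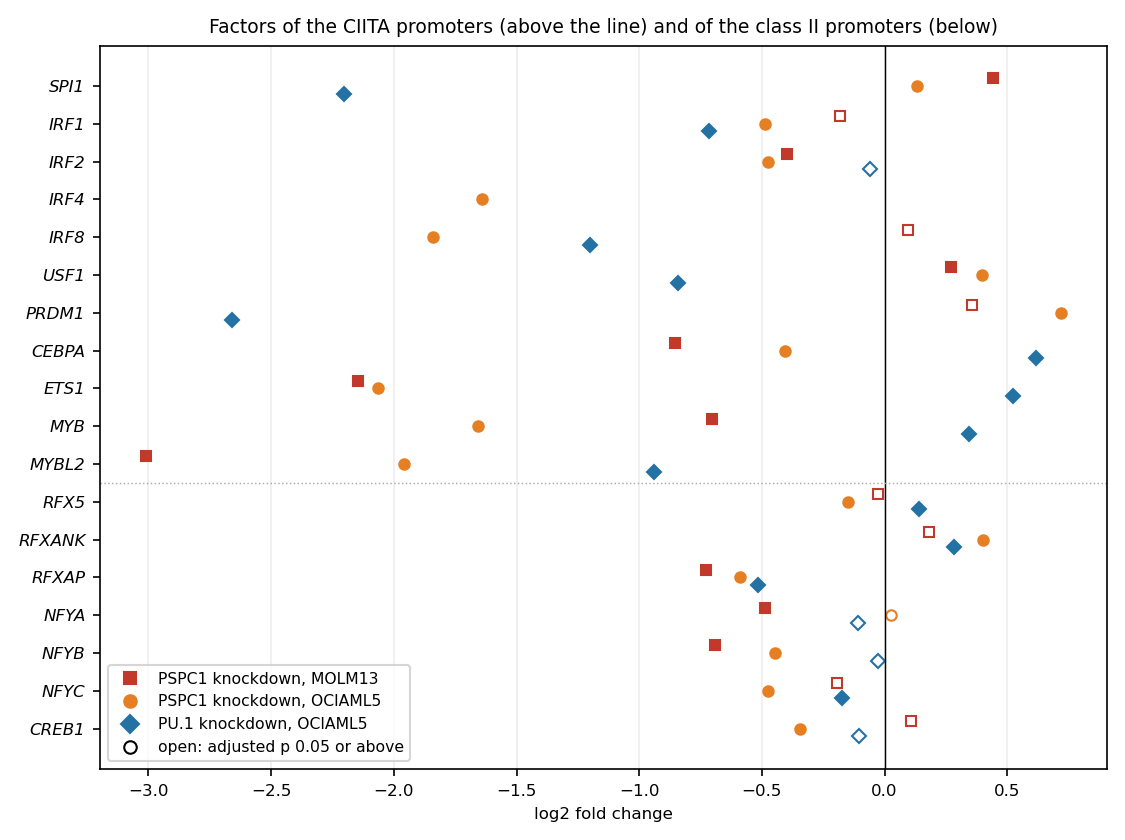
Log2 fold changes of 11 of the 12 factors of the CIITA promoters (above the dotted line) and of 7 RFX, NF-Y and CREB genes of the class II promoters (below) in the 3 knockdowns; open symbols have an adjusted p of 0.05 or above, and IRF4 has no point in MOLM13, where it had 0 counts, or after PU.1 knockdown, where it was not tested. IRF8 lies at -1.84 and -1.20 in the OCIAML5 knockdowns of PSPC1 and PU.1 and at 0.10 in MOLM13.

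In the interferon gamma pathway, which induces CIITA in many cells, genes moved in both directions. IFNGR1, a receptor chain, fell in all 3 knockdowns, and had 50.1 and 49.9 CPM in OCIAML5 shPSPC1 libraries, against 137 and 139 CPM in controls (log2 fold change -1.45), and 41.5 and 43.0 CPM in shPU.1 libraries, against 109 and 114 CPM (-1.41). STAT2 and STAT3 rose in all 3. After PSPC1 knockdown in MOLM13 and OCIAML5 and after PU.1 knockdown, the log2 fold changes were 1.45, 0.41 and 0.65 for STAT2 and 0.19, 0.68 and 0.92 for STAT3. Of the 12 genes of that list, 6 rose and 3 fell after PSPC1 knockdown in MOLM13, 6 rose and 5 fell in OCIAML5, and 4 rose and 3 fell after PU.1 knockdown, the last a share near the 60.4% of all genes tested. Their median log2 fold changes were 0.12, 0.21 and 0.098.

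Of 18 genes that cut CD74 and antigens or carry class II molecules, 16 were tested. After PSPC1 knockdown 9 rose and 3 fell in MOLM13 and 9 rose and 2 fell in OCIAML5, and 6 rose and 8 fell after PU.1 knockdown, where 27.6%, 27.5% and 29.6% of all genes tested rose and 29.5%, 28.4% and 30.9% fell. The difference between these counts was not tested. CTSS, the cathepsin that trims CD74, had 178 and 177 CPM in MOLM13 shPSPC1 libraries, against 105 and 104 CPM in controls (log2 fold change 0.75), and 187 and 174 CPM in OCIAML5 shPSPC1 libraries, against 98.2 and 102 CPM (0.87). It had 33.7 and 33.0 CPM in shPU.1 libraries, against 59.5 and 63.4 CPM (-0.90). CTSS was thus higher after PSPC1 knockdown in both lines and lower after PU.1 knockdown. MARCHF8, a ubiquitin ligase that acts on membrane proteins, rose in all 3, with log2 fold changes of 0.89, 0.83 and 1.19.

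Among genes with a mean of at least 5 CPM, the profile over the 12 libraries closest to that of CIITA was that of KIR3DX1, with a root mean square difference of 0.43 on the log2 scale, followed by EPB41L2 (0.64), MRVI1 (0.70), PODXL (0.71) and KCNMA1 (0.73), among 10684 genes compared. KIR3DX1 had 2.71 and 2.999 CPM in OCIAML5 shPSPC1 libraries, against 21.8 and 23.3 CPM in controls, and 1.91 and 1.94 CPM in shPU.1 libraries, against 12.9 and 13.7 CPM. The profile closest to CD74 was that of PIK3R5 (0.25), a regulatory subunit of PI3-kinase γ, followed by COL24A1 (0.44), NTN1 (0.44), DUSP6 (0.47) and ITGB7 (0.50). PIK3R5 had 180 CPM in both OCIAML5 shPSPC1 libraries, against 233 and 238 CPM in controls, and 25.5 and 25.4 CPM in shPU.1 libraries, against 146 and 143 CPM. Neither list of 5 held another class II gene. The likeness is a description over libraries that share lines, experiments and depth.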

How the data were processed

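The deposited tables hold raw counts of reads per gene, made by the authors, in 1 table with 8 libraries for PSPC1 and 1 with 4 for PU.1. Libraries were made from total RNA with a stranded mRNA kit, per the labels' protocols. STAR 2.7.10a, Trim Galore 0.6.7, DESeq2 1.36.0 and HTSeq 2.0.2 are named beside GRCh38, without a role, in the submitters' processing notes. The sources used here do not give the annotation counted or its strand option, so reads of overlapping genes on opposite strands cannot be told apart. No sample column was left unused (0). The samples were grouped by their titles.

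Counts were fitted in R 4.3.3 with edgeR 4.0.16 (filterByExpr, TMM, quasi-likelihood F test, Benjamini-Hochberg over all genes tested, threshold 0.05). The PSPC1 table was fitted as 4 groups (16457 genes, with 4 residual degrees of freedom) and that of PU.1 as 2 groups (16861 genes, with 2). For the contrast of knockdowns, all 8 OCIAML5 libraries entered 1 fit (17159 genes). The SE is the log2 fold change divided by the root of its F. Between the controls of the lines, exact intervals take its place for genes with low counts in MOLM13. The 10 genes and all lists were chosen with earlier results of these data known. Named besides the 10 were PSPC1, SPI1, the 3 genes of a list with the smallest adjusted p in a comparison, and the 5 closest profiles to CIITA and CD74 (prior count 2, mean of at least 5 CPM), with other genes noted. Marker genes were named to describe list sums. The values of 1 gene of the lists are not reported here.

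Libraries of a group differed by 2.64 to 5.63 times the counting variance, so none is a duplicate. Exact intervals (95%) and floors of 3 counts cover counting error only, since no molecular identifiers are described. Alternatives were DESeq2 1.42.0, RLE factors, library size alone, other low-count filters, a replicate block, summed paralogs, a line alone, each library left out and, added after the data were seen, the controls of the other experiment. The fits were tested on simulated data. GENCODE 29 on GRCh38 gave gene positions, and promoters came from RefSeq on GRCh38.p14, and plots were drawn with Python 3.11.15 and matplotlib 3.10.9.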

Additional observations from a re-analysis of the deposited data

Results flagged for a closer look

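The effect of PSPC1 knockdown differed between MOLM13 and OCIAML5, by the test of the difference, for 4 genes: by 1.79 for CIITA, 0.56 for CD74, 1.70 for HLA-DRB1 and 2.23 for HLA-DMA, as log2 fold change in MOLM13 minus that in OCIAML5. CD74 and HLA-DMA rose in MOLM13 and fell in OCIAML5, and CD74 did so on 4567 to 56611 counts per library. For HLA-DRB1 and HLA-DMA the MOLM13 libraries held 4 to 31 counts. The lines also differ in medium and GM-CSF, and the part of these in the difference was not tested.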

How the results depend on the processing

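The number of the 10 genes called stayed within 1.5 times its main value under every setting run: with a replicate block the counts were 3 for PSPC1 knockdown in MOLM13, 7 in OCIAML5, 9 for PU.1 knockdown, 4 for the line difference, 9 for PU.1 minus PSPC1 and 10 between lines, as without the block; same-numbered libraries did not deviate together (r of 0.0068, 0.0065 and 0.0031 across genes). With each library left out in turn they ran from 2 to 4, 7 to 7, 8 to 9, 3 to 4, 8 to 9 and 10 to 10. Reversed signs, none of them called, were HLA-DQB1 in MOLM13 with RLE factors (0.0047) and library size alone (0.024), and HLA-DRB1 in OCIAML5 with library size alone (0.047). With 1 library left out, uncalled values crossed 0 for HLA-DRA in MOLM13 (-0.37 to 0.69) and the line difference (-0.15 to 0.91), for HLA-DQB1 in MOLM13 (-0.61 to 0.71), OCIAML5 (-0.17 to 0.72) and the line difference (-0.83 to 0.49), and for HLA-DRB1 in OCIAML5 (-0.14 to 0.065). The controls of the PU.1 experiment reversed 7 values of PSPC1 knockdown in OCIAML5: CD74 0.79, HLA-DRA 0.97, HLA-DRB1 1.00, HLA-DPA1 0.68, HLA-DPB1 0.73, HLA-DMA 0.27 and HLA-DMB 0.86; the cause was not tested. Summing paralogs gave 4 genes in MOLM13 and 5 for the line difference, and the MOLM13 libraries alone tested 4 genes and called 2. Library size alone gave 5201 higher and 4183 lower genes after PSPC1 knockdown in OCIAML5, against 4533 and 4681. Depth limits the MOLM13 chain genes and HLA-DQB1.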

Other observations

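CD86, a costimulator read by CD28, had 4.58 and 6.05 CPM in OCIAML5 shPSPC1 libraries, against 2.04 and 1.99 CPM in controls (log2 fold change 1.41, adjusted p = 3.6e-05), and 3.01 and 4.23 CPM in shPU.1 libraries, against 0.0918 and 0.0513 CPM in controls (5.62, adjusted p = 4.3e-17). The controls of the PU.1 experiment were close to the detection limit here, so the size of that change is uncertain. They also lay far below the 2.04 and 1.99 CPM of the OCIAML5 controls of the PSPC1 experiment. In MOLM13 CD86 had 2.49 and 2.78 CPM in shPSPC1 libraries, against 5.87 and 4.97 CPM in controls (-1.05, adjusted p = 0.0012). TNFSF9, the ligand of 4-1BB, rose in all 3 knockdowns, with log2 fold changes of 1.29 and 0.61 after PSPC1 knockdown in MOLM13 and OCIAML5 and 0.74 after PU.1 knockdown. Of the costimulation list, 4 rose and 2 fell of 12 tested after PSPC1 knockdown in MOLM13, 3 rose and 1 fell of 12 in OCIAML5, and 6 rose and 3 fell of 11 after PU.1 knockdown, where 57%, 56% and 60.4% of all genes tested were called.

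Of 12 class I genes, 7 rose and 2 fell after PSPC1 knockdown in MOLM13, 4 rose and 4 fell in OCIAML5, and 2 rose and 9 fell after PU.1 knockdown. Of all genes tested, 27.6% rose and 29.5% fell in MOLM13, 27.5% rose and 28.4% fell in OCIAML5, and 29.6% rose and 30.9% fell after PU.1 knockdown. The median log2 fold changes of the class I genes were 0.37, 0.02 and -0.40. HLA-B had 816 and 824 CPM in OCIAML5 shPSPC1 libraries, against 489 and 533 CPM in controls (log2 fold change 0.70), and 227 and 234 CPM in shPU.1 libraries, against 399.8 and 396 CPM in controls (-0.80). HLA-E had 294 and 293 CPM in shPU.1 libraries, against 172 and 174 CPM in controls (0.75). In OCIAML5 shPSPC1 libraries HLA-B was thus higher than in controls while HLA-DPB1 was lower.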
